A study of Mus musculus with 38 samples.

Results

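VIM-3039 is a cell line grown from a kidney tumour of a VIM mouse, and its response to doxycycline (Dox) was read from all genes of 8 RNAseq libraries among the 38 of the mouse series. VIM mice carry KspCre-ERT2, Vhl F/F, a germline Ink/Arf-/- deletion, Ksp-rtTA and Tet-O-Myc, which the labels shorten to Vhl-/-; MYC +; Ink-/-/Arf-/-. Both Cre and rtTA are driven by the promoter of the kidney cadherin Ksp, and both groups share every one of these alleles. The 4 libraries titled VIM-dox come from cells maintained on Dox at 2 µg per ml, and the 4 titled VIM-no-dox from cells from which Dox was withdrawn, all collected 24 h after plating. The comparison asks which transcripts depend on Dox, and so on the Tet-O-Myc transgene, in cells that lack Vhl and Ink/Arf. VIM-3039 is a single line, and no line without the transgene was compared with and without Dox, so that effects of Dox itself and of the transgene cannot be told apart. The sources do not state whether the 4 libraries of a group are separate cultures, and the p-values measure only the spread between them. For comparison, VM-3055 cells (Vhl-/-; MYC +) and MYC-2983 cells (MYC+) have 4 libraries with Dox and 4 without each, and the line numbers of the VM and VIM cells come from the paper.

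MYC is a transcription factor that binds DNA as a dimer with MAX, at E-boxes of the letters CACGTG among other sites. It is known for raising genes of ribosome production, nucleotide synthesis and the cell cycle, and for lowering genes of adhesion, matrix and differentiation. VHL marks the HIF transcription factors for degradation in the presence of oxygen, and the Cdkn2a locus encodes Ink4a, which restrains the G1 kinases, and Arf, which stabilizes p53. In the kidney, loss of VHL is the founding event of most clear cell carcinomas.

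The libraries hold an estimated 12.4 to 19.9 M assigned reads each, and values are given in units in which the upper quartile of a library is 1000. The floor of detection was set at 3 reads, or 1.97 to 3.34 units depending on the library. Vhl (chromosome 6) averaged 12.7 ± 4.01 units with Dox and 17.1 ± 6.39 without (SD, n = 4 each), against 451 ± 12.2 and 533 ± 7.51 in MYC-2983 cells. Cdkn2a (chromosome 4) averaged 29.98 ± 4.09 and 34.1 ± 5.36 units, against 3171 ± 103 and 3564 ± 210 in MYC-2983 cells, so that both deleted genes were low in VIM-3039 whether Dox was present or not. The mouse Myc row (mm9 chr15:61816946-61821929, plus strand) was lower with Dox. It held 432, 360, 371 and 361 units in the 4 libraries labelled with Dox and 1500, 1384, 1532 and 1501 in those labelled without, a log2 change of −1.96 (SE 0.054, adjusted p 2.51e-18). The sources do not say whether transgene reads were counted in this row, so it does not check the labels, and "with Dox" stands below for the libraries so labelled. The summed level of 12 renal epithelial markers was 9210 to 9402 units with Dox and 16950 to 18160 without. Cdh16 was the largest part (3696 ± 7.63 units with Dox and 7335 ± 257 without), and Krt19 averaged 1317 and 3226 units. Of the 12, 4 passed as lower and 1, Cdh1, as higher. Epcam changed by 0.84 and did not pass, and Pax2 averaged 231 units in both groups. The 12 fibroblast markers summed to 1846 to 1987 and 3054 to 3374 units, with Thy1 at 0 in all 8 libraries. Most of the sum came from S100a4 (843 ± 56.2 units with Dox and 2139 ± 132 without) and Twist2 (970 ± 28.2 and 685 ± 27.8). In every library of the group, 5 of the 12 with Dox and 4 without were at or under the floor. As lower 4 passed, and none as higher. The 8 endothelial markers summed to 4.85 to 10.4 units with Dox and 2.23 to 19.9 without, with Kdr, Tek and Tie1 at 0 in all 8 libraries. The 9 leukocyte markers summed to 287 to 314 and 370 to 445 units, of which Csf1r, a growth factor receptor, made up most (275 ± 15.1 with Dox and 378 ± 27.2 without). The pan-leukocyte gene Ptprc (12.96 ± 6.42 and 12.02 ± 2.94 units) and Cd68 (11.4 ± 4.39 and 12.96 ± 3.95) were above the floor in every library and did not pass the test, Csf1r missed the fold threshold, and Cd3e, Emr1 and Tyrobp were at 0 in all 8. The part of these markers in the changes below was not tested. In bulk samples, fewer cells of a type and less RNA per cell cannot be told apart.

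Of 21705 genes in the table, 13998 were above 0 in at least 4 of the 8 libraries and were tested with limma. The criteria for passing were an adjusted p under 0.05 (Benjamini-Hochberg) and a log2 change beyond 1 in either direction. With Dox 1074 genes (7.67% of those tested) were higher and 2322 (16.6%) were lower, together 24.3%. Groups did not overlap for 70.0% of the tested genes. The split depended on the scaling of the libraries. Falls accounted for 68.4% of all passing genes with the authors' upper quartile, 56.9% after TMM rescaling and 50.5% after quantile normalization. The median log2 change of all tested genes was −0.15, and these scalings shifted it by 0.14 and 0.16. All 1074 higher genes also passed as higher under both scalings, whereas 1886 and 1567 of the lower ones stayed lower. Falls were more frequent among the bigger changes. More than 2 on the log2 scale was reached by 143 genes upwards and by 541 downwards, and more than 3 by 23 and 86.

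**Figure D1:**
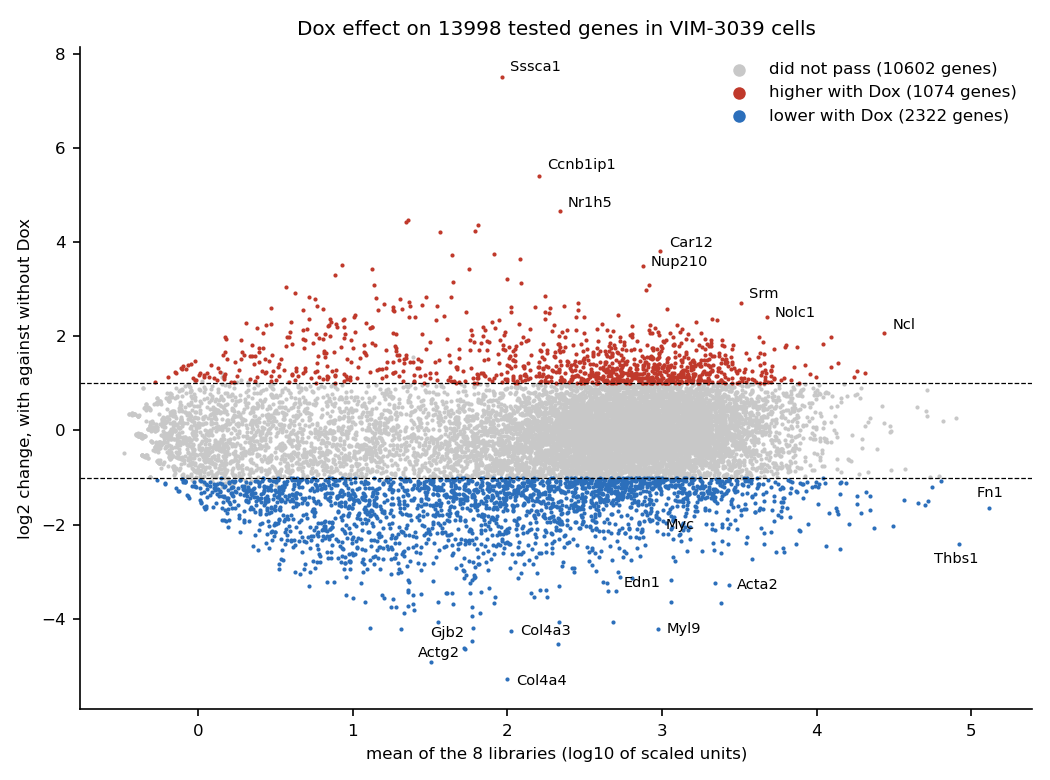
Log2 change with against without Dox (vertical axis) over the mean of the 8 VIM-3039 libraries (horizontal axis, log10 of scaled units) for the 13998 tested genes, each a point. Red points are the 1074 higher and blue the 2322 lower genes, and dashed lines mark a change of 1. The 23 rises and 86 falls beyond 3 on the log2 scale lie at the upper and lower edges, from Sssca1 to Col4a4.

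The 12 largest rises were of genes with many different roles. Sssca1, an autoantigen of Sjögren syndrome and scleroderma, was listed at 208, 205, 202 and 122 units with Dox and at 0 in all 4 libraries without, at least 62.8-fold higher against the floor of each library. It was also at 0 without Dox in VM-3055 and MYC-2983 cells. At mm9 chr19:5728088-5731732 it overlaps Fam89b on the same strand, which had 1560 ± 48.6 and 1422 ± 70.4 units, and reads of the pair may not be separable. Ccnb1ip1, a ubiquitin ligase known from meiotic crossing over, had 360, 303, 308 and 291 units with Dox and 9.49, 6.69, 3.06 and 8.30 without. The groups did not overlap in either gene, which the choice of the 12 required. The nuclear receptor gene Nr1h5 had 546, 387, 372 and 374 units against 19.9, 8.92, 10.2 and 29.9. Also among the 12 largest were the WNT receptor gene Fzd9 (125 ± 8.09 against 5.18 ± 1.26 units), the Ras-like Rasd2 (119 against 5.39), the neurofilament gene Nefh (70.5 against 2.89) and Mpzl2, Pcsk4 and Lingo3. Car12 (mm9 chr9:66561493-66614652), a carbonic anhydrase of the cell surface, varied little within a group, at 1827, 1828, 1817 and 1832 units with Dox and 130, 126, 133 and 128 without. Its log2 change was 3.81 (SE 0.047, adjusted p 6.46e-23). Cecr2, a bromodomain protein of chromatin remodelling, and Nup210, a membrane protein of the nuclear pore, complete the 12. The largest adjusted p among them was 5e-11.

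Most genes of ribosome production rose. Of 42 tested genes for nucleolar proteins, rRNA processing and RNA polymerase I, 35 were higher and none lower with Dox, and the median log2 change was 1.57, against −0.15 for all genes. Nolc1, a nucleolar phosphoprotein, had 8105, 7917, 7947 and 8112 units with Dox and 1547, 1492, 1431 and 1532 without. Dkc1, the pseudouridine synthase of snoRNPs, rose by 2.35 on the log2 scale, and Polr1b, the second largest subunit of RNA polymerase I, by 2.30. The nucleolar proteins Ncl and Npm1 rose from 10520 ± 131 to 44360 ± 1529 and from 5011 ± 78.3 to 19760 ± 166 units. TMM rescaling counted 38 of the 42 as higher and quantile normalization 35.

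Fewer genes of translation itself passed, where 7.67% of all tested genes were higher. Among 78 cytosolic ribosomal protein genes 11 were higher and none lower, with a median of 0.71. TMM counted 21 and quantile normalization 17, and 6 passed without the first library with Dox. Rps13, at 64.6 ± 11.1 units against 12.96 ± 8.20, had the largest change of them (2.43), and Rplp0, at 22990 units with Dox, changed by 0.78 and did not pass. Reads of these genes can be shared with their many processed pseudogenes. Of 48 translation factor genes 9 were higher, among them Pabpc4, a poly(A)-binding protein (1.82), Eif3j (1.30) and Eif5a, whose protein carries hypusine (1.26). Of 37 aminoacyl-tRNA synthetase genes 4 were higher, Yars2 and Mars2 of the mitochondrion and Vars and Kars of the cytosol. Kars, at 1.02, did not pass without the second library without Dox. Polr3e was the single gene of 20 for RNA polymerase III and its factors that passed. None of these lists held a lower gene.

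Import and folding genes were higher for 12 of 32, and for 21 under TMM, including Timm8a1 (364 against 85.3 units), Tomm5 (2460 against 653) and the chaperonin pair Hspd1 and Hspe1, which share a promoter region and changed by 1.84 and 1.58. Hspd1 had 17100, 17510, 17280 and 17170 units with Dox and 4953, 4891, 4835 and 4592 without. Of 82 genes of the mitochondrial ribosome and its translation factors 11 were higher, among them Mrpl12 (1.41), and TMM counted 18. The largest change in this list was 2.29. Of 77 nuclear genes of oxidative phosphorylation none was higher and 1 was lower, Cox7a1, which stood at 2.18 against 7.30 units, near the floor, and did not pass under quantile normalization (−0.90) or with a pseudocount of 10 (−0.51). Quantile normalization counted 2 members higher and none lower, and TMM 1 of each. Their median was 0.28, against 0.92 for import and folding.

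In nucleotide synthesis 16 of 36 genes were higher and 1 lower. Cad, which opens pyrimidine synthesis, had 6675, 6669, 6542 and 7099 units with Dox and 1729, 1601, 1701 and 1786 without. Umps, which closes it, rose by 1.85, and so did Prps1, which makes the phosphoribosyl donor, while Gart of purine synthesis rose by 1.87. In the serine, one-carbon and methionine cycle 9 of 23 were higher. Cytosolic Shmt1, which moves a carbon from serine to folate, had 1560, 1485, 1480 and 1426 units against 152, 167, 198 and 178, a log2 change of 3.10. Its mitochondrial counterpart Shmt2 rose by 1.63, Mthfd1 by 1.79 and Ahcy, which clears S-adenosylhomocysteine, by 2.13. Groups did not overlap for any of these genes, nor for 70.0% of all tested genes.

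Of 14 polyamine genes 4 were higher and 4 lower, the latter 2 under TMM. Srm, spermidine synthase, had 5687, 5474, 5495 and 5813 units with Dox and 879, 797, 852 and 894 without (log2 change 2.71, SE 0.037, adjusted p 1.45e-22). Sms, spermine synthase, rose by 1.62 and Odc1, which makes putrescine, by 1.44. Sat1, which acetylates polyamines for export and breakdown, fell by 1.54 on the log2 scale, from 3402 ± 106 to 1170 ± 64.8 units, and Adc, now known as an antizyme inhibitor, fell by 3.46.

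E-boxes were counted in RefSeq promoter windows of GRCm38.p6, from 250 bases before to 50 after each annotated start. The letters CACGTG read the same on both strands. They occurred in 7.2% of all 32851 windows. Of 10996 tested genes with a window, 11.5% held the letters in at least 1, against 17.7% of the 855 higher genes and 9.5% of the 1754 lower ones with a window. In ribosome biogenesis 8 of 37 genes held them (21.6%), and in DNA replication 8 of 40, but in mitosis, another list that rose, 3 of 29 (10.3%). A match is a description of these windows and not a binding site. The sequences are the 250 bases before the start of Sms, the named gene of ribosome, polyamine or nucleotide synthesis that holds the letters, and of Nop2, a ribosome biogenesis gene that rose by 1.60, chosen after values were seen. They are written 5′ to 3′ on the strand of the gene, with CACGTG in capitals.
Sms, chrX:157492288-157492537, minus strand: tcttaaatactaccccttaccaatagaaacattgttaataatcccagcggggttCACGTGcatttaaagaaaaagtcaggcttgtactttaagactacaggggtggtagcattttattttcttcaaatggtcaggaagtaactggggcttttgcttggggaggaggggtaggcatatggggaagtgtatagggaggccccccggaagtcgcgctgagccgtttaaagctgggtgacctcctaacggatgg
Nop2, chr6:125131633-125131882, plus strand: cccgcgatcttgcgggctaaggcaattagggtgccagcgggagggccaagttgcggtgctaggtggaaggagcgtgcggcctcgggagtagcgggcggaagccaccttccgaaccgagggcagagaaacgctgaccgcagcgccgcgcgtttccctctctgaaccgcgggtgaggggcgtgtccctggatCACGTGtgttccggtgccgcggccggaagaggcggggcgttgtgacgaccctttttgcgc
The letters begin 196 bases before the start in Sms and 60 bases before it in Nop2.

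Of 33 genes for glutamine use, proline metabolism and amino acid transport 7 were higher and 1 lower. The neutral amino acid carrier Slc6a15 rose from 177 ± 8.84 to 1405 ± 44.0 units and the glutamine carrier Slc1a5 from 687 ± 40.3 to 2879 ± 79.8. The glutaminase Gls2 rose from 42.6 to 308 units (2.85) and Prodh, which oxidizes proline, from 53.2 to 324 (2.61). Slc7a5 changed by 0.60 and did not pass. Of 32 glycolysis genes 2 were higher and 4 lower, with a median of 0.03. These are 6.25% and 12.5%, against 7.67% and 16.6% of all tested genes. Slc16a1, the lactate carrier MCT1, rose from 685 ± 16.4 to 3546 ± 55.4 units, whereas the enolase genes Eno2 and Eno3 fell by 2.28 and 1.29 and Aldoc fell by 1.84. Ldha and Pkm2 changed by 0.41 and 0.30. In lipid synthesis 5 of 36 genes were higher and 2 lower, with Elovl6 (1.498) and Fasn (1.34) up.

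Most genes of DNA replication and of mitosis rose. In DNA replication 30 of 49 genes were higher and none lower, with a median of 1.11. Mcm10, which helps to start the replication fork, had 1068, 1116, 1056 and 1119 units with Dox and 320, 291, 276 and 280 without. Cdt1, which loads the MCM helicase, rose by 1.75, Pold2 of DNA polymerase delta by 1.74 and the clamp loader gene Rfc5 by 1.55. In mitosis 19 of 32 were higher and none lower. Cdc20, which activates the anaphase-promoting complex, had 3341, 3151, 3224 and 3264 units against 905, 840, 872 and 943. Espl1 (separase), Bub1b and Ccnb1 rose by 1.68, 1.55 and 1.51, while Mki67 changed by 0.98 and passed under TMM and quantile normalization but not with the authors' scaling. Of 26 genes for G1 cyclins, E2F and RB proteins 9 were higher, with the E cyclins Ccne2 (1.75) and Ccne1 (1.56) and the ubiquitin ligase subunit Skp2 (1.39) in front, and Cdk4 changed by 0.27.

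Of 51 splicing and export genes 13 were higher and none lower, led by Nup210 at 1426, 1334, 1280 and 1475 units with Dox and 90.2, 139, 104 and 163 without. The pore scaffold gene Nup205 (1.25) and the spliceosome genes Snrpa1 (1.504) and Snrpg (1.29) followed. Of 30 chromatin genes 13 were higher and 3 lower, among the higher Cecr2 (3.75), the methyltransferase Dnmt3b (1.87), Set (6558 against 2107 units) and Ruvbl1 (1.59). The host transcript of the miR-17 to miR-92 cluster, Mir17hg, chosen after its values were seen, held 338, 254, 268 and 186 units with Dox and 48.4, 37.9, 38.8 and 39.0 without.

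In the MYC network, of 13 genes none was higher and 5 were lower with Dox. Beside Myc, Mycn fell from 21.1 ± 4.79 to 1.44 ± 0.996 units and Mycl1 from 45.8 to 10.8. Mxd4, whose product competes for MAX, fell by 1.17 on the log2 scale, and Mlxipl fell by 1.503 close to the floor and did not pass without the second library without Dox. Neither Mxd4 nor Mlxipl passed under quantile normalization. Max, the partner of MYC, changed by 0.73 and did not pass.

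**Figure D2:**
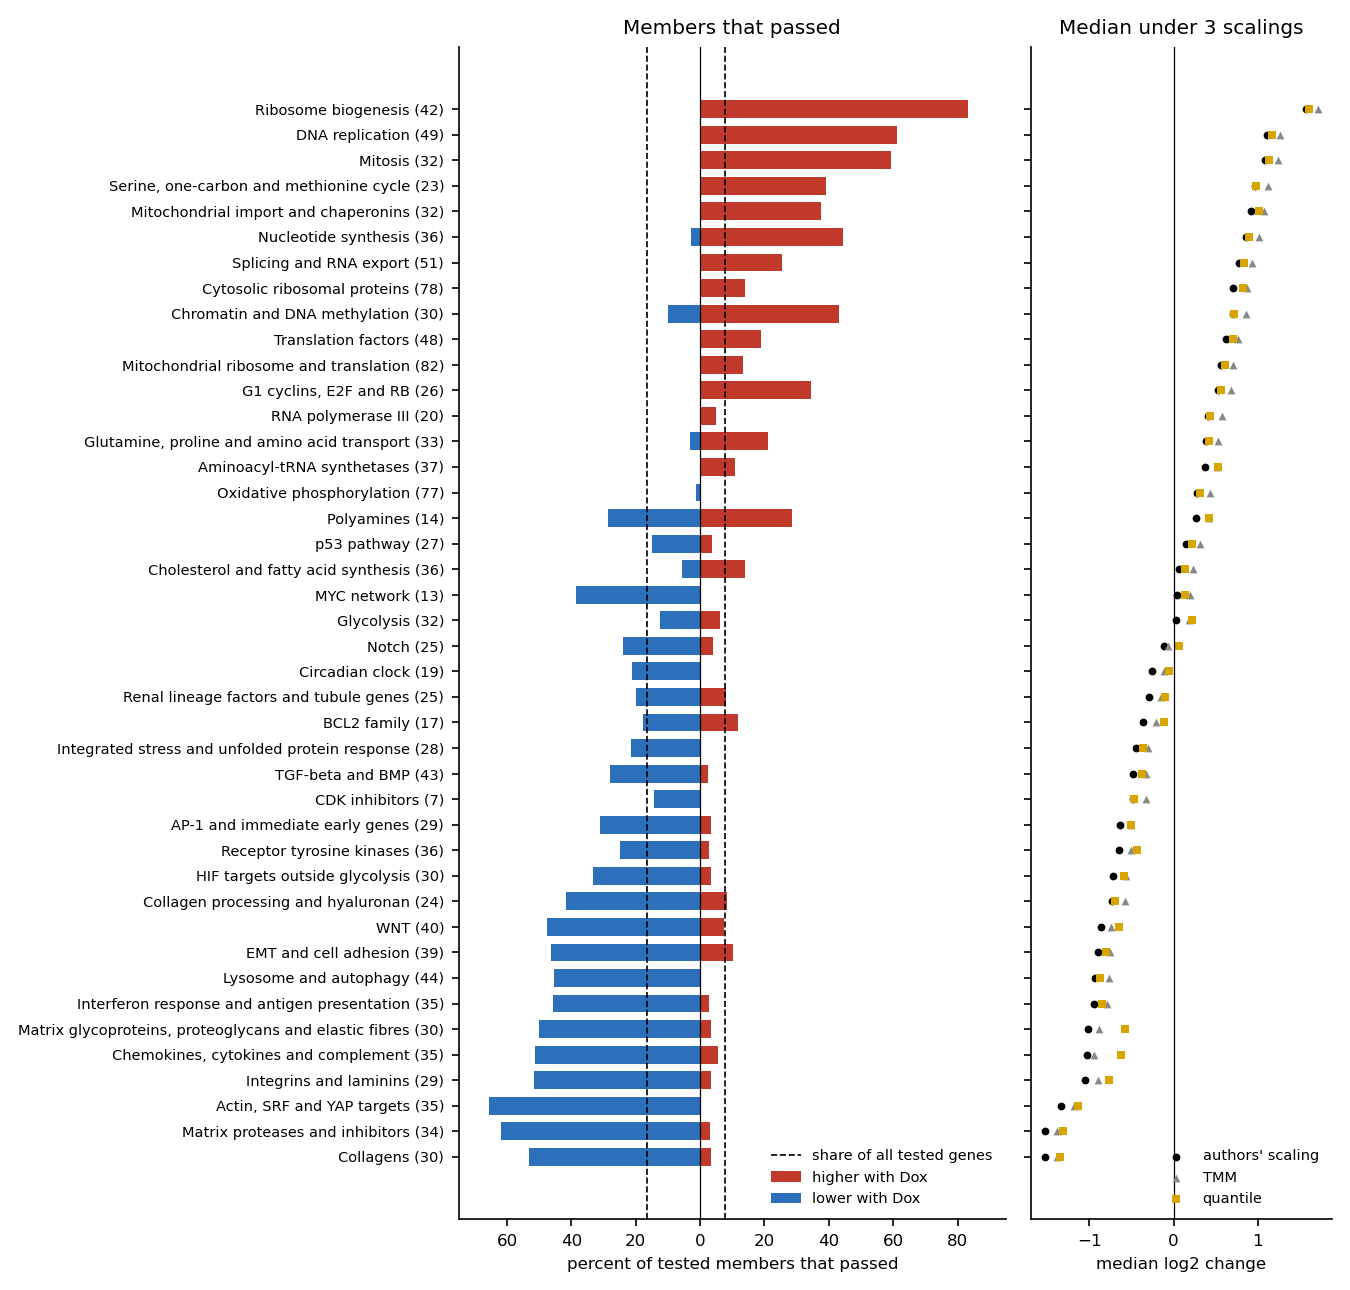
Left, percent of the tested members of 42 gene lists (member numbers in brackets) that were higher (red) or lower (blue) with Dox, with dashed lines at 7.67% and 16.6%, the shares of all tested genes. Right, the median log2 change of each list under the authors' scaling, TMM and quantile normalization, in which ribosome biogenesis (1.57) is highest and collagens and matrix proteases (both −1.53) are lowest with the authors' scaling.

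The 12 largest falls were led by Col4a4 (mm9 chr1:82447298-82583424), a chain of the basement membrane collagen IV of the kidney filter. It had 4.86, 4.16, 5.25 and 2.42 units with Dox and 211, 149, 214 and 211 without, a log2 change of −5.27 (SE 0.211, adjusted p 1.19e-15). Its neighbour on the opposite strand of chromosome 1, Col4a3 (mm9 chr1:82583496-82718634), fell with it, from 203 ± 24.9 to 9.98 ± 3.54 units. The myosin light chain Myl9 of smooth muscle had 81.2, 103, 130 and 77.6 units with Dox and 1913, 1580, 1818 and 1872 without. Actg2, smooth muscle actin gamma, fell from 101 to 3.90 units, the gap junction gene Gjb2 from 114 to 4.26 and Lims2, an adaptor of focal adhesions, from 410 to 17.6. Ldb3, a Z-disc protein, fell from 409 ± 9.53 to 23.9 ± 4.42 units, the chemokine gene Ppbp from 918 ± 38.8 to 53.6 ± 3.78 and the interferon-induced GTPase Gbp2 from 115 to 6.22. Gm8979 fell by 4.63 on the log2 scale, and BC096441, which overlaps Tnfsf12 and Tnfsf13 on its strand, fell by 4.92. In BC096441, 3 libraries with Dox were at 0 and 1 was at 15.3 units. The remaining row of the 12 carries a number in place of a gene symbol and is not named here. The largest adjusted p among the 12 was 1.93e-07.

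Genes of the extracellular matrix fell in large numbers. Of 30 collagen genes 16 were lower and 1 higher, with a median of −1.53. Col4a1, a chain of collagen IV in most basement membranes, had 1728, 1974, 1980 and 1810 units with Dox and 8404, 7846, 8228 and 8883 without. Col1a1 fell by 3.19 and Col6a2 by 2.92, while Col5a2 changed by −0.64. Among 24 genes of collagen processing and hyaluronan 10 were lower and 2 higher, including the lysyl oxidases Loxl2 and Loxl4, which each fell by 1.99, the hyaluronan synthase Has2 (−1.87) and the collagen chaperone Serpinh1 (−1.66). Of 30 matrix glycoproteins, proteoglycans and elastic fibre genes 15 were lower and 1 higher. Thbs1, thrombospondin, had 23750, 26680, 29630 and 26230 units with Dox and 143500, 136100, 136200 and 145700 without. Fn1, fibronectin, fell from 196600 ± 11840 to 63220 ± 2492 units and took the largest share of any gene in the libraries without Dox (1.31 to 1.46% of the total). Under quantile normalization, in which the top ranks of all libraries receive the same values, Fn1 did not pass.

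Of 29 integrin and laminin genes 15 were lower and 1 higher. Itga5, a chain of the fibronectin receptor, had 1658, 1855, 2003 and 1844 units with Dox and 10700, 9674, 10170 and 10710 without. The laminin chain Lamb3 fell by 2.99, and the integrin chains Itgb3 and Itgb1 by 2.75 and 1.48. Of 34 matrix proteases and their inhibitors 21 were lower and 1 higher, with a median of −1.53. Mmp10 fell from 218 to 36.3 units, the membrane-bound Mmp14 from 154 to 30.3, and Adamts4, which cuts aggrecan, from 737 to 166, whereas Adamts1 changed by −0.37. In the TGF-beta and BMP pathway 12 of 43 were lower and 1 higher. Ligand genes were among the falls, Inhba of activin from 2057 ± 211 to 227 ± 19.3 units, Tgfb3 from 766 to 168 and Tgfb2 from 1353 to 361, and Ltbp2, which binds fibrillin, fell by 3.39.

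Most genes of the contractile cytoskeleton fell. Of 35 actin, SRF and YAP target genes 23 were lower and none higher, with a median of −1.34. Acta2, smooth muscle actin alpha, had 442, 510, 615 and 473 units with Dox and 5148, 4610, 4858 and 5094 without. Cnn1, calponin, fell from 398 to 53.7 units, and the actin filament genes Tpm1 and Flna fell by 1.57 and 1.55. The actin genes are closely related, and reads may have been divided among them. In the list of EMT and adhesion genes 18 of 39 were lower and 4 higher. Epithelial and mesenchymal genes were both among the falls, with Krt20 (−3.69), the claudins Cldn1 (−3.40), Cldn4 (−2.84) and Cldn2 (−2.44), Nes (−1.34) and Vim (−1.21), and Cdh16, the Ksp cadherin, changed by −0.99 and did not pass. Vim did not pass under quantile normalization. Cldn1, which seals tight junctions, averaged 77.0 ± 10.04 units with Dox and 819 ± 58.8 without.

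**Figure D3:**
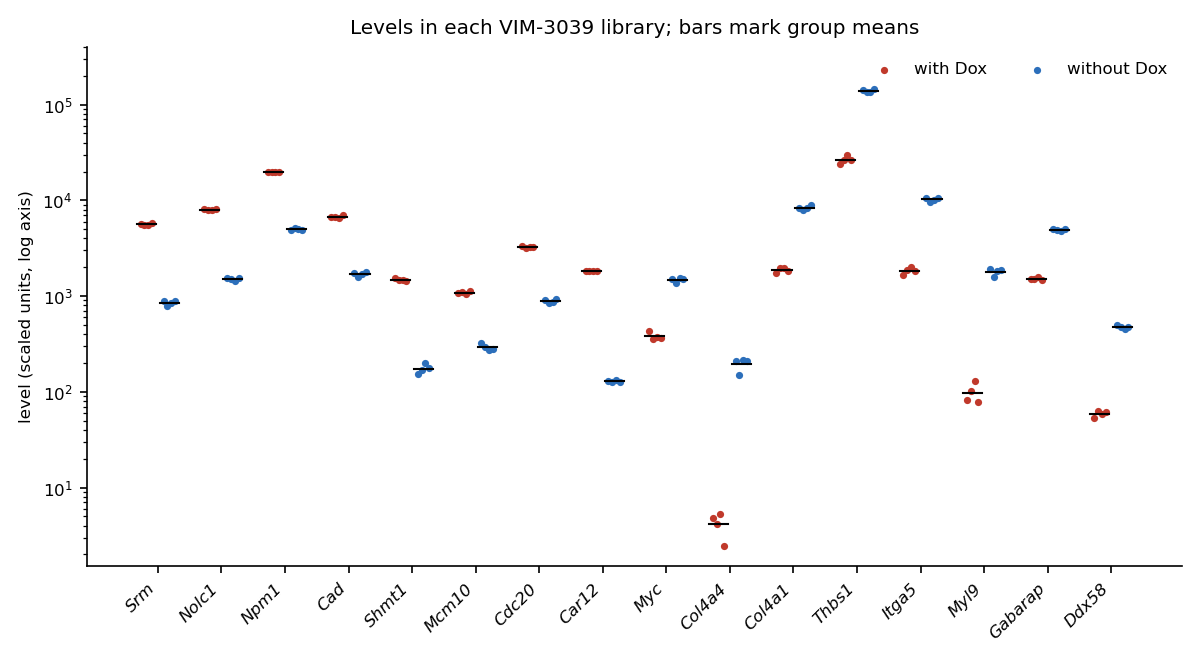
Levels of 16 genes in each of the 8 VIM-3039 libraries (scaled units, log axis), red with Dox and blue without, with bars at the group means. In none of the 16 do the groups overlap, from Srm (5617 against 856 units) to Ddx58 (58.7 against 478). The same held for 70.0% of all tested genes, and Car12, Col4a4 and Myl9 were chosen with no overlap required.

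Of 25 lineage factors and tubule genes 2 were higher and 5 lower. Both shares were slightly above those of all tested genes, 7.67% higher and 16.6% lower. The homeobox gene Emx2 fell from 1263 ± 36.1 to 555 ± 37.6 units, and the endocytic receptor gene Cubn from 132 to 58.3, which did not pass under quantile normalization. Havcr1, which encodes the injury marker KIM-1, fell from 3724 ± 139 to 642 ± 46.2 units, and Ggt1, an enzyme of the tubule brush border, rose from 30.9 to 99.7. Among the 12 epithelial markers Krt8, Krt18 and Krt19 fell by 2.15, 1.44 and 1.29 and Cdh1 rose by 1.01, a call that was lost when each of 4 of the libraries was left out in turn, while Pax8 changed by −0.45.

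In WNT signalling 19 of 40 were lower and 3 higher, among the lower the ligand gene Wnt9a (242 to 35.4 units), the secreted inhibitor Dkk3 (4134 to 688) and the receptor Lgr6 (78.7 to 20.7), beside the rise of Fzd9. Of 36 receptor tyrosine kinases 9 were lower (25.0%, against 16.6% of all tested genes) and 1 higher (2.78%, against 7.67%). TMM and quantile normalization each counted 7 lower. Epha4 and Ephb6 fell by 2.17 and 2.21 and Fgfr1 by 1.54, whereas Met and Axl changed by −0.25 and −0.42. In Notch signalling the ligands diverged, as Jag1 fell from 3966 to 955 units and Dll4 from 112 to 29.4 while Jag2 rose from 352 to 1248. Of 29 AP-1 and immediate early genes 9 were lower (5 under TMM) and 1 higher, including the phosphatase genes Dusp1 (−2.20) and Dusp4 (−1.48) and Maff (−1.87).

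Of 35 interferon response and antigen presentation genes 16 were lower and 1 higher. Ddx58, the RNA sensor RIG-I, had 52.8, 62.4, 58.4 and 61.4 units with Dox and 503, 474, 458 and 478 without. Ifit3 fell by 2.42 and the class I gene H2-T23 by 2.22, and B2m changed by −0.92. Of 35 chemokine, cytokine and complement genes 18 were lower and 2 higher. The count of lower genes was 10 when genes averaging under 10 units were left out, and 9 with a pseudocount of 10. Ccl2, which attracts monocytes, fell from 787 ± 23.5 to 143 ± 11.9 units, Csf1, the growth factor of macrophages, from 5185 ± 263 to 1631 ± 61.97, and the complement shield Cd59a from 137 to 19.6. The 9 leukocyte markers summed to 287 to 314 units with Dox and 370 to 445 without, mostly from Csf1r (275 ± 15.1 and 378 ± 27.2).

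Lysosome and autophagy genes were lower for 20 of 44 and higher for none, with a median of −0.93, and TMM left 11 lower and 1 higher and quantile normalization 13 lower. Ctso, a cysteine protease, fell from 195 ± 8.65 to 27.7 ± 4.52 units, and Hexa, a hexosaminidase, fell by 1.56. Gabarap, which builds autophagosomes, had 1494, 1513, 1587 and 1489 units with Dox and 5049, 4907, 4767 and 5020 without, and Map1lc3a fell by 1.66. Ctsd, the aspartic protease cathepsin D, fell by 1.11 with the authors' scaling and did not pass under TMM or quantile normalization. The E-box letters stood in the windows of 13 of 34 of these genes (38.2%), against 11.5% of all tested genes. Of the 13 with the letters 4 were lower, with a median of −0.64, and of the 21 without them 9 were lower, with a median of −0.95. The 250 bases before the start of Ctsd and of the glycosidase gene Naglu, which fell and hold the letters there and were chosen after values were seen, are shown in the same way.
Ctsd, chr7:142387828-142388077, minus strand: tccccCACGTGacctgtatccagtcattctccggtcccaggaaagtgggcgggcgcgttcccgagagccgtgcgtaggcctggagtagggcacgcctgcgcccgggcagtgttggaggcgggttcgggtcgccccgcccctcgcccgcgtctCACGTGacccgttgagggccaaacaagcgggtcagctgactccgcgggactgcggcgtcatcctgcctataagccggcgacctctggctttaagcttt
Naglu, chr11:101069844-101070093, plus strand: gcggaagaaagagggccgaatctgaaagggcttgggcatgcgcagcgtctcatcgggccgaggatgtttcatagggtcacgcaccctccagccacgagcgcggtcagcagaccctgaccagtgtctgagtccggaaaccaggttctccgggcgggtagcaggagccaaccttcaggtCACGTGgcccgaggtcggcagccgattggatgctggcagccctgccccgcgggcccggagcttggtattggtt
In Ctsd the letters begin 245 and 98 bases before the start, and in Naglu 73 bases before it, with a log2 change of −1.18.

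In the integrated stress and unfolded protein responses 6 of 28 genes were lower and none higher, and TMM counted 4 lower. The 6 are 21.4%, against 16.6% of all tested genes. Ddit3, the factor CHOP, fell from 336 to 76.6 units, Xbp1 from 1550 to 485 and the kinase gene Eif2ak3 from 1182 to 475. Of 19 clock genes 4 were lower (21.1%, against the same 16.6%). They were Rora (−2.22), Bhlhe40 (−1.51), Arntl (−1.36) and Npas2. Npas2 was under the floor on average in both groups. Its call was lost when each of 4 of the libraries was left out in turn.

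HIF targets outside glycolysis were lower for 10 of 30 and higher for 1, in a line whose Vhl row was low in both groups. Edn1, the vasoconstrictor endothelin, had 71.5, 93.6, 99.1 and 80.8 units with Dox and 937, 886, 934 and 915 without. Plin2, which coats lipid droplets, fell from 8787 to 3275 units and Lox from 5985 to 2071. The single rise was Car12.

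In the p53 pathway 1 of 27 genes was higher and 4 were lower, with a median of 0.15. These are 3.7% and 14.8%, against 7.67% and 16.6% of all tested genes. Pmaip1, which encodes the death promoter Noxa, had 1103, 1352, 1310 and 1196 units with Dox and 6021, 6018, 5804 and 5716 without. Fas fell by 2.25, Plk2 by 1.31 and Gadd45a by 1.03, and Eda2r, a receptor of the TNF family, rose from 297 ± 11.3 to 783 ± 46.5 units. Cdkn1a (p21) had 2389 ± 4.56 and 2002 ± 82.0 units, a change of 0.26 that did not pass. Among 17 BCL2 family genes the death promoters Bcl2l11 (1.04) and Hrk (2.69) were higher and Bcl2l1 (−1.12), Bcl2 (−1.05) and Pmaip1 lower. The shares of the family, 11.8% higher and 17.6% lower, compare with the same 7.67% and 16.6%. Bcl2l1 and Bcl2 did not pass under TMM. Gadd45a did not pass under TMM or quantile normalization, nor without the fourth library without Dox. Of 7 CDK inhibitor genes only Cdkn1c passed, at 0.713 against 4.65 units, and it lost the call when each of 7 of the libraries was left out in turn.

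Whether the Dox effect of VIM-3039 differed from that of the other lines was tested in one fit over 24 libraries, as the VIM-3039 change minus the mean of the VM-3055 and MYC-2983 changes. Of 16092 genes tested 525 (3.26%) had a change higher by more than 1 on the log2 scale and 433 (2.69%) a change lower by more than 1, together 5.95%. None of the 42 ribosome biogenesis, 49 DNA replication or 32 mitosis genes was among them. Their median differences, under that cut, were 0.35, 0.33 and 0.35. Tested in each line alone, 35 ribosome biogenesis genes were higher in VIM-3039, 35 in VM-3055 and 16 in MYC-2983 cells. In the same order the counts were 30, 18 and 4 for DNA replication and 19, 12 and 4 for mitosis. Lists with a negative median in VIM-3039 varied. They held 9 of 37 matrix proteases, 6 of 48 WNT genes and 5 of 35 actin, SRF and YAP targets, but 2 of 45 genes of EMT and adhesion, 1 of 44 of lysosome and autophagy, 1 of 43 receptor tyrosine kinases and none of 28 of the integrated stress response. For a gene that fell in all 3 lines, a higher difference means a smaller fall in VIM-3039 than the mean of the other lines.

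Of 27 genes of the p53 pathway 4 were higher in the contrast (14.8%, against 3.26% of all genes tested). None was lower, against 2.69% of all genes tested. These 4 were singled out after their values were seen. Cdkn1a changed by 0.26 in VIM-3039, −1.10 in VM-3055 and −0.78 in MYC-2983 cells, a difference of 1.19 (SE 0.064, adjusted p 2.83e-14). Trp53inp1, a p53-induced nuclear protein, changed by −0.28, −2.23 and −2.12 (difference 1.90). The cyclin G gene Ccng1 changed by 0.40, −0.74 and −0.47, and its difference of 1.01 did not pass under TMM (0.98) or quantile normalization (just under 1), against MYC-2983 alone (0.87), or when each of 3 VIM-3039 libraries was left out in turn. Eda2r rose in VIM-3039 and stood at 4.77 and 6.67 units in VM-3055 and at 23.6 and 21.6 units in MYC-2983 cells, with and without Dox. Its difference of 1.54 fell to 0.96 under quantile normalization. The levels differed between lines. In VIM-3039 Cdkn1a held 2389 units with Dox and 2002 without, against 549 and 1174 in VM-3055 and 157 and 271 in MYC-2983 cells.

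Of 42 interferon genes 12 had a higher difference and 1 a lower one, against 3.26% and 2.69% of all genes tested. For most of the 12 both groups of VIM-3039 lay near or under the floor, as with Rsad2 (0.540 and 0.753 units, against 77.9 and 345 in MYC-2983 cells), Mx2, Usp18 and Psmb8. Of these, Mx2 and Usp18 did not pass against VM-3055 alone, Psmb8 not against MYC-2983 alone, and Usp18 not without the second library of either VIM-3039 group. Tap1, a peptide transporter, rose from 11.2 to 26.3 units in VIM-3039, by 0.95 without the third library without Dox, and fell from 13.9 to 4.76 in VM-3055 and from 95.1 to 18.9 in MYC-2983 cells. The smooth muscle genes Myl9, Acta2, Actg2 and Cnn1, named above, had lower differences. They were −2.88 for Actg2 and −1.33 for Cnn1. In VM-3055 cells Actg2 held 0 units with Dox and 1.21 without, and Cnn1 held 13.8 and 37.8. Myl9 changed by −4.21, −1.61 and −2.03 in VIM-3039, VM-3055 and MYC-2983 cells (difference −2.39) and Acta2 by −3.28, −2.23 and −1.998 (difference −1.16), although in VM-3055 cells both were near or under the floor, at 0.185 and 2.79 units for Myl9 and 0.801 and 7.28 for Acta2. With a pseudocount of 0.1 the differences were −1.28 (adjusted p 0.0891) for Myl9 and −0.52 (adjusted p 0.517) for Acta2, and neither passed. Car12 rose by 3.81, 1.35 and 2.16 and Edn1 changed by −3.41, −1.21 and −1.57, differences of 2.06 and −2.02.

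The 6 largest differences in each direction include genes that were near the floor in one or more lines. Nr1h5 and Ccnb1ip1 had differences of 6.12 and 5.41, and in VM-3055 and MYC-2983 cells their highest group means were 6.05 and 0.136 units. Klhdc7a changed by 1.12 in VIM-3039 (0.98 without the second library without Dox) and by −2.28 and −2.27 in VM-3055 and MYC-2983 cells, and Pcdhgb8 by 2.35, −1.40 and −0.21. Lama3 and Cldn19 were near the floor in VIM-3039 and fell in both other lines. On the other side Akr1c19, an aldo-keto reductase, fell from 50.6 to 11.3 units in VIM-3039 while it rose from 17.1 to 93.2 in VM-3055 and from 10.4 to 44.8 in MYC-2983 cells. Hdac9, a class II deacetylase, changed by −2.95, −0.997 and 1.63. Cd200, an immune checkpoint ligand, fell from 275 ± 26.3 to 44.2 ± 4.61 units in VIM-3039 and was near the floor elsewhere. Epha8 and AI118078 rose with Dox in VM-3055 and MYC-2983 cells and were at or near 0 in both groups of VIM-3039, and Tppp, a tubulin-binding protein, rose from 41.1 to 156 units in MYC-2983 cells while in VIM-3039 it was at 0.675 units with Dox and 6.73 without.

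**Figure D4:**
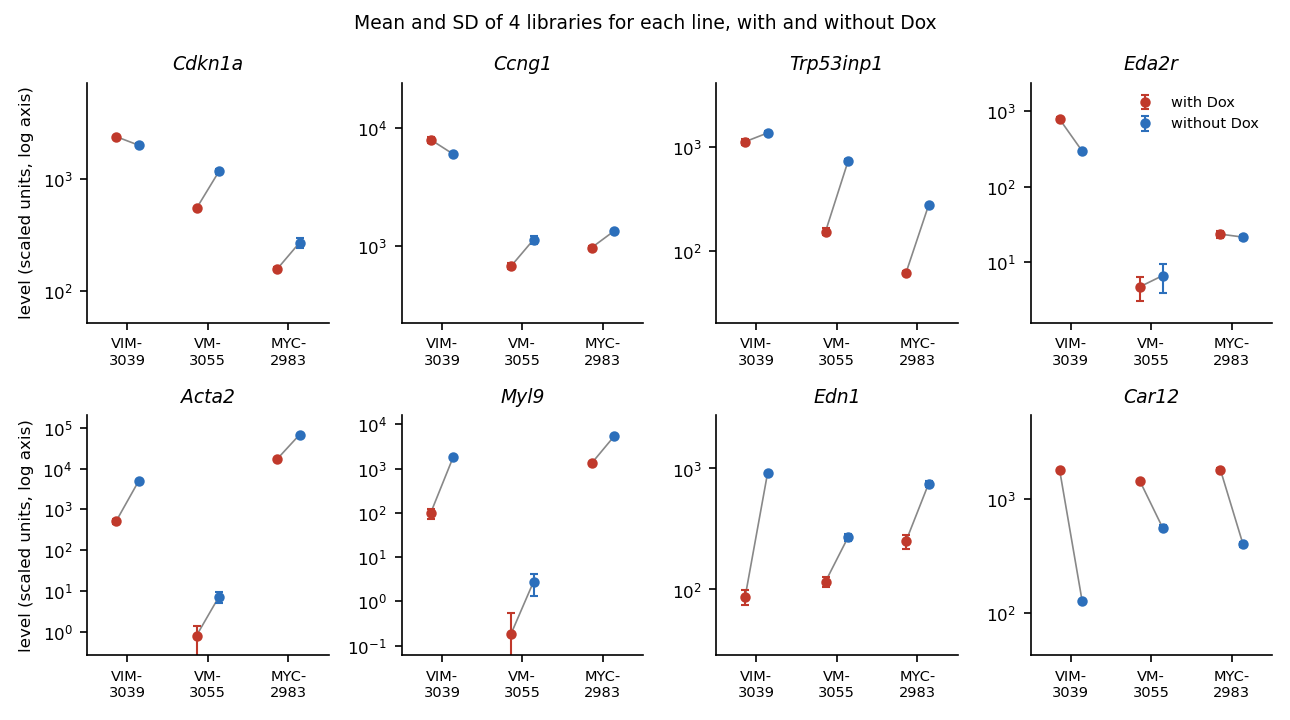
Mean and SD of 4 libraries (scaled units, log axis) with Dox (red, left) and without (blue, right) for 8 genes in VIM-3039, VM-3055 and MYC-2983 cells, joined by grey lines. Cdkn1a, Ccng1 and Trp53inp1 had log2 changes of −2.23 to −0.47 in VM-3055 and MYC-2983 cells and of −0.28 to 0.40 in VIM-3039, and bars that reach 0 are cut at the axis.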

How the data were processed

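RNAseq of VIM-3039 cells gave 4 libraries with and 4 without Dox, prepared with a stranded mRNA kit and sequenced in pairs. The authors aligned reads to mm9 with MapSplice, profiled the alignments with Picard (version 1.64, per the submitters' processing notes), sorted them with SAMtools, and estimated gene abundance with RSEM over UCSC known genes. The deposited signal is the RSEM estimate scaled by the authors so that each library's upper quartile is 1000. Low values were whole multiples of 1 read for 94.1 to 94.8% of values under 20 reads (tolerance 0.02 of a read), which gave the depth, 12.4 to 19.9 M reads, and the floor of 3 reads. It covers counting error only.

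Values were tested as log2(value + 1) with limma (version 3.58.1, R 4.3.3), moderated with a trend, two-sided, on genes above 0 in at least 4 of 8 libraries, with Benjamini-Hochberg adjustment. Fold changes are on this scale, which understates the change of low genes. The line contrast used 24 libraries. Named genes were the engineered genes, the 12 largest rises and falls with a mean of at least 50 units and no overlap, leading and most abundant members of each list, every passing member of lists with 5 or fewer, and the 6 largest line differences in each direction. Members and lists were chosen with earlier results of these data known. On simulated data the Dox fit called 200 of 200 changed genes and 3 others among 14092. The line contrast called 200 of 200 and 8 others among 16185. The changed genes averaged at least 50 units and all changed by more than the fold threshold, so that recovery was easy. All other genes were simulated without a change, unlike the measured libraries. Recovery of low genes or of genes near the fold threshold in the measured libraries was not tested. The limma voom fit on the recovered reads called 1072 genes higher and 2431 lower. Other alternatives were pseudocounts of 0.1 and 10, other filters, TMM and quantile scaling, a replicate block, other sets of libraries and no moderation. Promoter windows came from RefSeq (GRCm38.p6). A number in place of a symbol is carried by 26 rows, which were not named. Normal kidney and tumour tissue libraries were not used here. Some genes are not reported here.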

Additional observations from a re-analysis of the deposited data

Results flagged for a closer look

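A library stood apart from the other 3 of its group, by Dixon's ratio, in 24 of 434 groups of 4, where chance flags about 1 in 20. With Dox the separate values were 15.3 units for BC096441, 81.4 for Cubn, 2.63 for Epha8, 18.7 for H2-T23, 97.2 for Mpzl2, 2995 for Mrpl12, 3257 for Mthfd1, 0.694 for Mx2, 432 for Myc, 3898 for Nop2, 0.808 for Npas2 and for Psmb8, 546 for Nr1h5, 1281 for Rfc5, 122 for Sssca1 and 39.5 for Wnt9a. Without Dox they were 149 units for Col4a4, 4793 for Csf1, 94.9 for H2-T23, 3930 for Havcr1, 48.4 for Mir17hg, 0.830 for Mx2, 14.2 for Tppp and 527 for Yars2. Their causes were not tested.

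The Dox change of VIM-3039 differed from the mean of VM-3055 and MYC-2983 for the 25 genes chosen for the line comparison above. It was tested as an interaction in limma. Other genes named in this report also passed, among them Gjb2 (−2.37), Actg2 (−2.88), Col4a4 (−1.83), Cnn1 (−1.33), Nup210 (1.48) and Nefh (1.72). The differences of the 25 follow. In the p53 pathway the log2 differences were 1.19 for Cdkn1a, 1.90 for Trp53inp1, 1.01 for Ccng1 and 1.54 for Eda2r. In the interferon list they were 2.22 for Rsad2, 2.11 for Mx2, 1.25 for Usp18, 1.72 for Psmb8 and 3.16 for Tap1. Smooth muscle genes had −2.39 (Myl9) and −1.16 (Acta2), and HIF targets 2.06 (Car12) and −2.02 (Edn1). Higher differences were also 6.12 for Nr1h5, 5.41 for Ccnb1ip1, 3.39 for Klhdc7a, 3.16 for Pcdhgb8, 3.33 for Lama3 and 3.22 for Cldn19. Lower differences were −4.33 for Akr1c19, −3.27 for Hdac9, −3.28 for Cd200, −4.78 for Epha8, −4.21 for AI118078 and −2.99 for Tppp.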

How the results depend on the processing

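Counts of genes higher and lower with Dox stayed within 1.5 times of 1074 and 2322 under every alternative run, from 826 to 1536 higher and from 1567 to 2431 lower. Leaving out each library gave 1007 to 1070 higher and 2204 to 2319 lower. The numbers in the labels did not pair the samples (correlations of same-numbered deviations −0.0622, −0.0379, 0.0539 and 0.1078), and a replicate block gave 1072 higher and 2325 lower. In the line contrast (525 higher, 433 lower), a mean of at least 10 units left 289 and 271 genes and a pseudocount of 10 left 195 and 187. Against MYC-2983 alone, an alternative chosen after seeing the data, 706 genes were lower, and leaving out each VIM-3039 library gave 495 to 548 higher and 406 to 454 lower. A replicate block on VIM-3039 and VM-3055 gave 532 and 337. The causes were not tested.

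Of 188 named genes that passed in VIM-3039, 168 passed under all 18 alternatives. Changes of sign were seen in genes that had not passed: under quantile normalization Cdkn2a (0.42), Vhl (0.20), Tnfsf13 (0.11), Cd68 (0.40) and Rsad2 (0.12), in Ptprc without 1 library (−0.25 to 0.23), in Rsad2 also with a pseudocount of 0.1 (0.29) and without 1 library (−0.29 to 0.23), and in Cldn19 under voom (−0.26) and without 1 library (−0.10 to 0.44). Of 1512 list counts 1428 stayed within 1.5 times.

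Depth limits genes near 3 reads, whose changes depend on the pseudocount. The libraries share 1 line, and the split between rises and falls depends on the scaling.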

Other observations

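Beyond the lists, gene families were grouped by their shared symbol, and 161 families had at least 10 tested members. These families were singled out after their values were seen, and the values are descriptions. Of all tested genes 7.67% were higher and 16.6% lower. Of 17 tested Pcdhb genes, which encode clustered protocadherins of cell recognition, 16 were lower with Dox, also under TMM and quantile normalization. Their median log2 change was −2.16. Most stood low, with a median member level of 1.28 units with Dox, under the floor, and 9.2 without. Changes of such low genes depend on the pseudocount. Pcdhb17, well above that level, stood at 10.8 ± 4.91 units with Dox and 105 ± 15.7 without. The members are related genes on 1 chromosome, and whether reads were divided among them was not tested. Of 10 Fgf genes 7 were lower (5 under quantile normalization), among them Fgf1 (37.3 against 162 units) and Fgf7 (71.6 against 235). The median Fgf member stood lower, at 1.73 units with Dox, under the floor, and 10.5 without. In the Parp family 7 of 12 were lower, with Parp14, linked to interferon responses, at 61.2 against 326 units, while Parp1, which senses DNA breaks, was higher at 3743 against 1386. Of 10 Exosc genes, subunits of the RNA exosome, 6 were higher, with Exosc2 at 1439 against 470 units. Of 20 Nup genes of the nuclear pore 9 were higher, with Nup85 at 2638 against 942 units.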
